A study of Mus musculus with 22 samples.

Results

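The genes described here are 4 markers of the contractile and energy machinery of skeletal muscle, Myh3, Myl1, Des and Ckm, followed across mouse cell lines. They were chosen by name, each with a fixed window on its strand of the mm9 genome: Myh3 on chromosome 11, plus strand, from 66891000 to 66917500; Myl1 on chromosome 1, minus strand, from 66970000 to 66993000; Des on chromosome 1, plus strand, from 75356000 to 75366500; and Ckm on chromosome 7, plus strand, from 19996000 to 20009000. The windows held 78 of the 612268 poly(A) sites listed in any library, of which 23 were in Myh3, 16 in Myl1, 34 in Des and 5 in Ckm. The deposited site lists carry no gene names, and no mm9 annotation was used here, so a site is given by its position and is not placed in an exon, an intron or a UTR.

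The study measured poly(A) sites and RNA levels in relation to Pcf11, a gene whose protein acts in 3′ end cleavage and transcription termination. It holds 20 libraries, in 10 groups of 2, of the 3′READS assay. The assay reads RNAs at their captured 3′ ends and so does not weight a gene by its length. The remaining 2 libraries, 1 per group, were RNA-seq of 3T3-L1 preadipocytes.

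C2C12, a mouse myoblast line that forms contractile myotubes in culture, gave 6 groups. Cells titled as differentiated and as proliferating form a pair of groups; both are labelled untreated with myoblast as the source, and the labels name no day of differentiation. Cells labelled siPcf11 were set against untreated cells, once as total RNA and once as RNA labelled with 4-thiouridine (4sU) at 50 µM for 1 h, a uridine analogue that enters RNA made during the labelling. NIH3T3 fibroblasts gave an siPcf11 and an untreated group, and 4T1 mammary carcinoma cells gave a Pcf11-IPAKO and an untreated group. The 3T3-L1 cells gave 1 library labelled siPcf11 and 1 untreated library. The labels name C57BL/6 as the strain throughout and no control siRNA, so an effect of transfection cannot be told apart from one of siPcf11. The labels do not say whether both libraries of a group are separate cultures. A p-value here therefore reflects the spread among these libraries alone, which may be technical. The tests of levels also draw each gene's spread towards that of all the others tested, so a p-value does not rest on 1 gene's reads.

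The 3′READS libraries held 1887532 to 4432717 reads. Levels are given as CPM, a gene's reads scaled to the total of its library. The Pcf11-IPAKO 4T1 libraries listed the most sites of all, with 105666 and 203899, against 53146 and 97285 in untreated 4T1 cells. Pcf11 was measured by name only in 3T3-L1, where it had 840 counts in the library labelled siPcf11 and 939 in the untreated library, or 120.1 and 109.5 CPM (log2 ratio 0.13, counting interval -0.0026 to 0.27), so the library labelled siPcf11 did not have less of it. The target was not checked in the 3′READS libraries here.

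Skeletal muscle contracts when myosin heads pull on actin inside repeating units called sarcomeres. Myoblasts that leave the cell cycle switch on the sarcomere genes under factors of the MyoD and MEF2 families, and later fuse into myotubes. Desmin is an exception in timing, since this filament protein is already made in myoblasts. Embryonic myosin and the creatine kinase of muscle are widely used as marks of completed differentiation.

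All 4 genes had 1 entry in the RefSeq promoter table (GRCm38.p6, another build than that of the site lists, and not converted). Their promoters are shown because the 4 genes were all higher in differentiated cells, and because the E-box, CANNTG, is the letter pattern bound by MyoD-family factors. Each sequence runs 5′ to 3′ on the gene's strand, from 250 bases before the annotated start through the first 50 bases of the gene, with E-boxes in capitals. The windows are chr11:67078050-67078349 (plus strand) for Myh3, chr1:66945007-66945306 (minus strand) for Myl1, chr1:75360042-75360341 (plus strand) for Des and chr7:19410844-19411143 (plus strand) for Ckm.
Myh3: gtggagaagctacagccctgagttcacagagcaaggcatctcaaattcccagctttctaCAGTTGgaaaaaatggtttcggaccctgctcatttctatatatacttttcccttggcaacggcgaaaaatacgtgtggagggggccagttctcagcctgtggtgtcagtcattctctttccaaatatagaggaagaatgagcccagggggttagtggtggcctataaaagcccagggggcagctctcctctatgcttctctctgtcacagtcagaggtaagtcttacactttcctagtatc
Myl1: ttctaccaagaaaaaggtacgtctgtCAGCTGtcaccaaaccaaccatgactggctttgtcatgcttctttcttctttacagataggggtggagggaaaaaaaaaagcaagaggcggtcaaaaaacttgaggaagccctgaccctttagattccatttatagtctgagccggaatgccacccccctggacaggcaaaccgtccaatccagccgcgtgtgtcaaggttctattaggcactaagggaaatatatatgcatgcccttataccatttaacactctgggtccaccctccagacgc
Des: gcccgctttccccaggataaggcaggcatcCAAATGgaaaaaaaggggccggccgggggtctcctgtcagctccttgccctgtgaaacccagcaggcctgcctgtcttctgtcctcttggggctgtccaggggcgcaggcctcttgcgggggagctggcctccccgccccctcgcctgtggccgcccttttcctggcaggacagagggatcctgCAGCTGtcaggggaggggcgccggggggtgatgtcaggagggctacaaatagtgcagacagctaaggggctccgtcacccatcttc
Ckm: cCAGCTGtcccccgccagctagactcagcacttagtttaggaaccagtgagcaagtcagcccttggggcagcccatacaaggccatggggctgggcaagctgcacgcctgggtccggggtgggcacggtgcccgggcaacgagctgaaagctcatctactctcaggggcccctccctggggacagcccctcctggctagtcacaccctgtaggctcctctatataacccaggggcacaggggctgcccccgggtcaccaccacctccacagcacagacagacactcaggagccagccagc

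Every one of the 4 promoters held an E-box, as did 72.3% of the 32851 promoters of this length in the table, both strands searched. Myh3 had 1, starting at position -191 from the gene start, Myl1 had 1 at -224, Des had 2 at -220 and -36, and Ckm had 1 at -249. The form CAGCTG, which is also counted as an E-box, was in 3 of the 4, at -224 in Myl1, -36 in Des and -249 in Ckm, and in 16.3% of all promoters. The letters TATAAA were in Myh3 at -29 and, on the opposite strand, in Myl1 at -95, and in 13.6% of all promoters. CATTCC, the core of the MCAT element, was in Myl1 at -80 on the opposite strand, and in 14.7% of all promoters. The MEF2 and CArG patterns were in none of the 4 windows, against 3.19% and 1.63% of all promoters. These are matches of letters, and nothing here measured binding to them. Only 1 window per gene was searched, so another promoter, such as Myl1 is known to have, was not examined.

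In differentiated C2C12 cells all 4 genes were among the more abundant RNA ends, while in proliferating cells 3 of the 4 were near the detection limit. Myh3, Myl1 and Ckm had at least 1941 reads in each differentiated library and at most 2 in any proliferating library, while Des was present in both states and 4.64-fold higher by pooled reads in differentiated cells. Together the 4 genes took 0.326% and 0.335% of all reads in differentiated cells, against 0.0116% and 0.00991% in proliferating cells. All 4 were higher at an adjusted p under 0.05 (edgeR quasi-likelihood test, Benjamini-Hochberg over all 11681 features tested), where 32.6% of all features were higher. Features are the 4 genes and, outside their windows, groups of neighbouring poly(A) sites on 1 strand. As these are bulk libraries, more cells in the muscle state and more RNA per cell cannot be told apart.

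**Figure D1:**
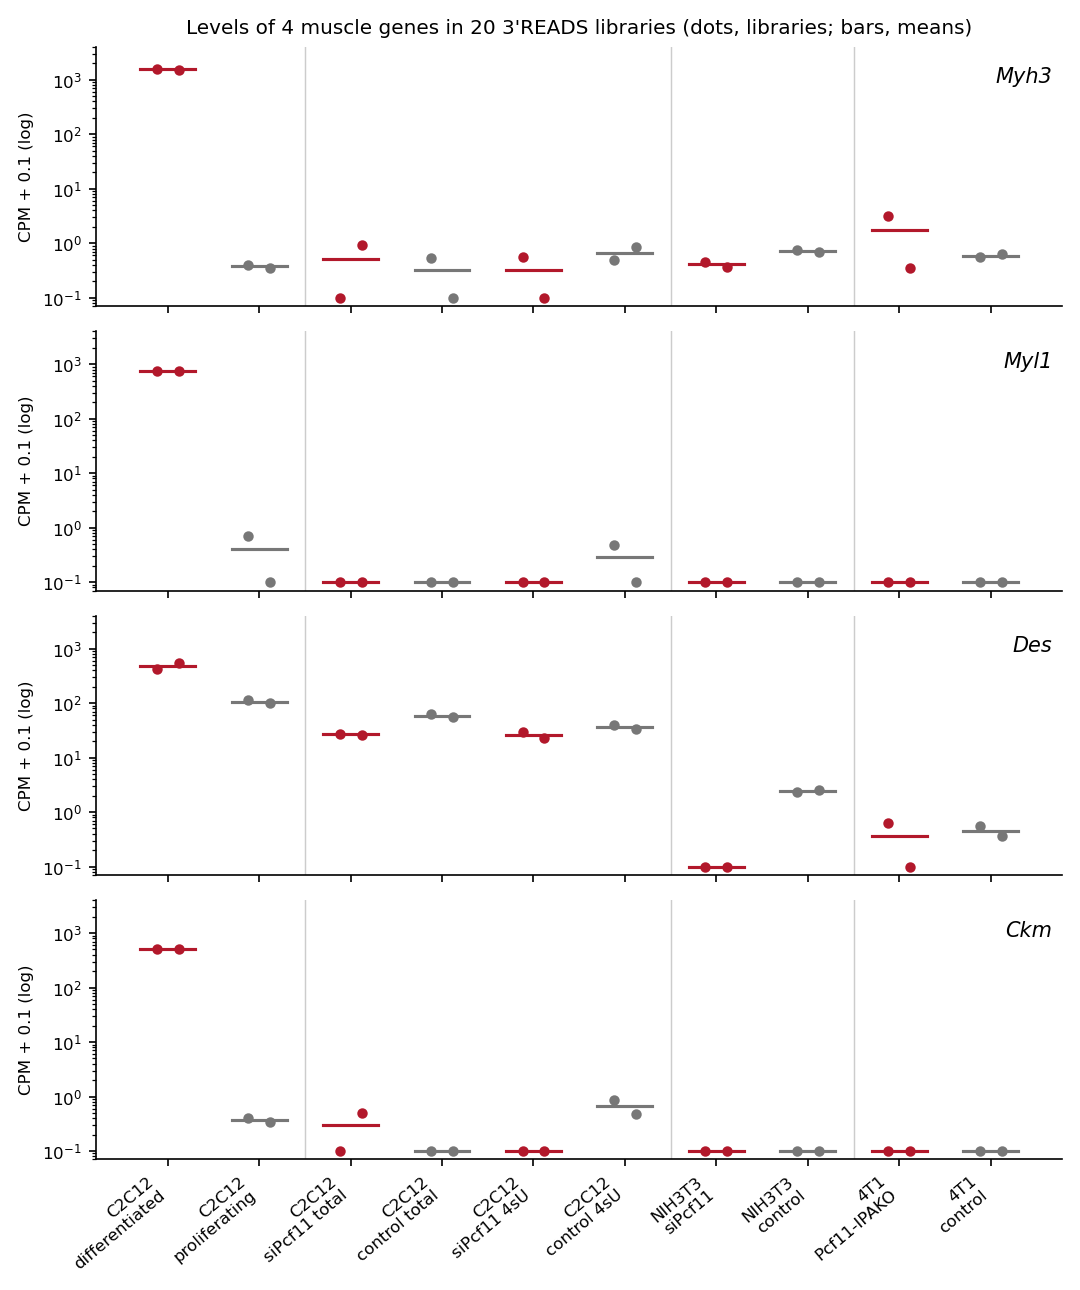
Level of each gene in every 3′READS library, as CPM plus 0.1 on a log axis, so that a library with no reads sits at 0.1; dots are libraries and bars are group means. Myh3, Myl1 and Ckm lie between 501 and 1577 CPM in differentiated C2C12 cells and below 4 CPM in every other group, while Des is above 20 CPM in all 6 C2C12 groups and below 3 CPM elsewhere.

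Myh3 encodes the embryonic myosin heavy chain, the motor of newly formed fibres. It had 6103 and 6818 reads in differentiated cells, or 1577 and 1538 CPM, against 1 read in each proliferating library. The 2 differentiated libraries were close to each other and far above both proliferating libraries, and Myh3 was the 56th most abundant of 14239 features in differentiated cells. Scaled to library totals, its reads were 5691-fold higher in differentiated cells, with a 95% counting interval of 1575 to 47000 that is wide because the denominator is 2 reads. The fitted log2 fold change was 12.44 ± 0.22 (SE, adjusted p = 3.39e-45, edgeR), the 16th highest of the features tested. Counted at its main site alone, which had 1 proliferating read, it was 13.29.

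Myl1 encodes a fast-type essential light chain that sits on the neck of the myosin head, and is known to give a long and a short protein isoform from separate promoters. It had 2927 and 3345 reads in differentiated cells, or 756 and 755 CPM, against 2 reads and no read in proliferating cells. The groups did not overlap, and the library with no read allows up to 0.74 CPM (3 reads). Myl1 was the 153rd most abundant feature of differentiated cells. The ratio of reads was 2763, with a counting interval of 764 to 22817, and the fitted log2 fold change was 11.40 ± 0.24 (SE, adjusted p = 8.39e-42, edgeR). That size rests on 1 proliferating library: it was 14.65 without proliferating library 1, which held both reads, and 10.30 without proliferating library 2.

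Des encodes desmin, the intermediate filament that links neighbouring myofibrils at their Z-discs. It had 1630 and 2444 reads in differentiated cells, or 421 and 551 CPM, against 374 and 400 reads, or 115 and 98.6 CPM, in proliferating cells. The lowest differentiated library was well above the highest proliferating one, and the spread between libraries was wider in differentiated cells. The means were 486 ± 92.1 CPM in differentiated cells and 106.7 ± 11.4 CPM in proliferating cells (SD, n = 2 each). The log2 fold change was 2.33 ± 0.12 (SE, 95% interval 2.09 to 2.56, adjusted p = 1.59e-24, edgeR). That placed Des 926th from the top, against a median log2 fold change of 0.02 over all features.

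Ckm encodes the muscle creatine kinase, which passes phosphate between phosphocreatine and ADP to keep ATP up during contraction. It had 1941 and 2245 reads in differentiated cells, or 501 and 506 CPM, against 1 read in each proliferating library. The differentiated libraries differed little and lay far above the proliferating ones. The ratio of reads was 1844, with a counting interval of 510.1 to 15229.9, and the fitted log2 fold change was 10.81 ± 0.24 (SE, adjusted p = 1.12e-40, edgeR), the 49th highest.

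The balance among the 4 genes differed between the states. Myh3 made up 47.1% of their joint reads in differentiated cells, followed by Myl1 with 22.8%, Ckm with 15.2% and Des with 14.8%, whereas Des alone made up 99.2% in proliferating cells. Within differentiated cells Myh3 had 2.09 and 2.04 times the reads of Myl1 in libraries 1 and 2, and 3.14 and 3.04 times those of Ckm. These ratios were nearly the same in both libraries. The order of Ckm and Des changed between libraries, with 1.19 and 0.919 reads of Ckm per read of Des, so these neighbours in the order did not differ beyond their spread.

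The 3′ ends of 3 of the genes fell almost wholly on 1 site. Site 66915788 took 99.6% of all Myh3 reads, site 20006933 took 99.4% of Ckm reads and site 75364291 took 98.1% of Des reads, over all 20 libraries. In differentiated cells the other listed sites held 38 of 12921 reads of Myh3, 24 of 4186 of Ckm and 61 of 4074 of Des. For Myh3 all 38 lay upstream of the main site, as far as 18438 nt away, and for Ckm 20 of 24 lay downstream. The other Des reads were split between 28 upstream and 33 downstream.

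Myl1 was the one gene with a pair of strong ends. Its distal site, 66970877, held 1742 and 1980 reads in differentiated cells, and its proximal site, 66972640, held 1127 and 1296 reads. The sites lie 1763 nt apart on the minus strand. The distal site took 59.4% ± 0.228 of Myl1 reads and the proximal site 38.6% ± 0.170 (SD, n = 2), and the distal site had 1.55 and 1.53 reads per proximal read. Both libraries thus showed the same division. A shift between states could hardly be measured, since proliferating cells had 2 Myl1 reads in all. None of the 3 Myl1 sites tested changed in use at an adjusted p under 0.05 (edgeR diffSpliceDGE; none had an unadjusted p under 0.05), against 9.71% of the 12078 sites tested, and the other 3 genes had too few sites for that test.

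**Figure D2:**
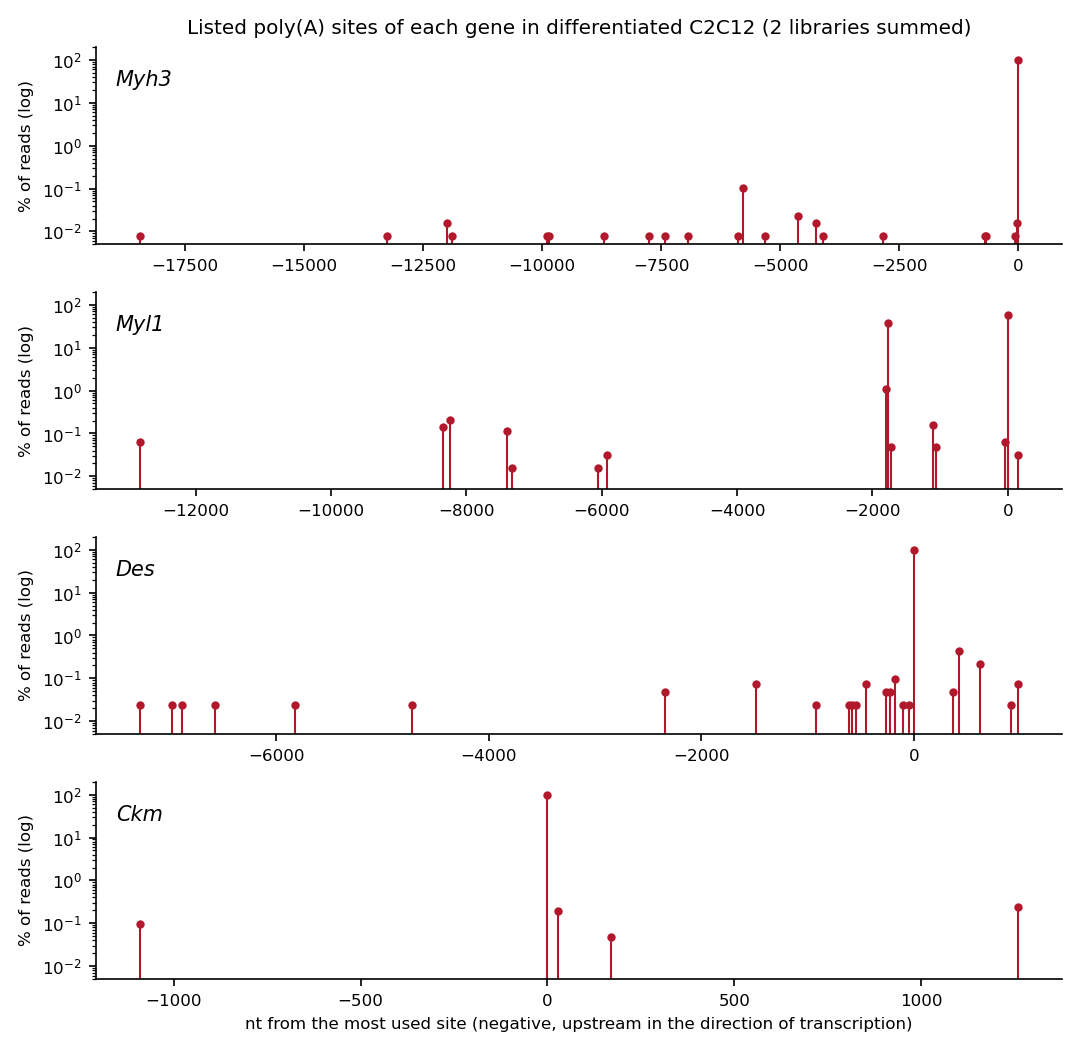
Share of each gene's reads at every listed poly(A) site in differentiated C2C12 cells, on a log axis, against the distance in nt from the most used site; negative distances are upstream. Myh3, Des and Ckm each have 1 dominant site, and Myl1 has a second strong site 1763 nt upstream of its most used one.

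In C2C12 cells labelled siPcf11, Des was the gene that could be compared, and its level in total RNA was lower. Des had 51 and 64 reads in siPcf11 total RNA, or 27.0 and 26.1 CPM, against 140 and 139 reads, or 61.8 and 56.1 CPM, in untreated total RNA. Both siPcf11 libraries lay below both untreated libraries, with means of 26.5 ± 0.672 and 58.97 ± 4.01 CPM (SD, n = 2 each). The log2 fold change was -0.98 ± 0.20 (SE, 95% interval -1.39 to -0.58, adjusted p = 1.31e-05, edgeR over 11095 features). Lower calls made up 27.4% of all features in that comparison, and Des ranked 2227th from the lowest fold change. For Des alone, 2 libraries a group allow no p under 0.333 in an exact two-sided permutation test.

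In RNA labelled with 4sU, the change of Des did not pass the test. Des had 63 and 47 reads in siPcf11 4sU RNA, or 28.8 and 22.4 CPM, against 103 and 87 reads, or 40.1 and 32.8 CPM, in untreated 4sU RNA. The 2 groups did not overlap in CPM. After TMM scaling the log2 fold change was -0.20 ± 0.22 (SE, 95% interval -0.63 to 0.23) and did not pass (adjusted p = 0.456, edgeR), where 25.1% of features were lower. Scaled by library totals alone it was -0.50 (adjusted p = 0.0405, edgeR), with the median of all features at -0.27 under that scaling, so this call rests on how libraries are scaled.

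The response to siPcf11 in 4sU RNA minus that in total RNA was 0.79 ± 0.30 on the log2 scale for Des (SE, 95% interval 0.19 to 1.38). Its unadjusted p was 0.00954, and the difference did not pass after adjustment over all features (adjusted p = 0.227, edgeR), where 0.838% of features did. That background is 93 features, and 25 to 93 without any 1 library. The responses in the 2 RNA fractions are therefore not shown to differ.

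**Figure D3:**
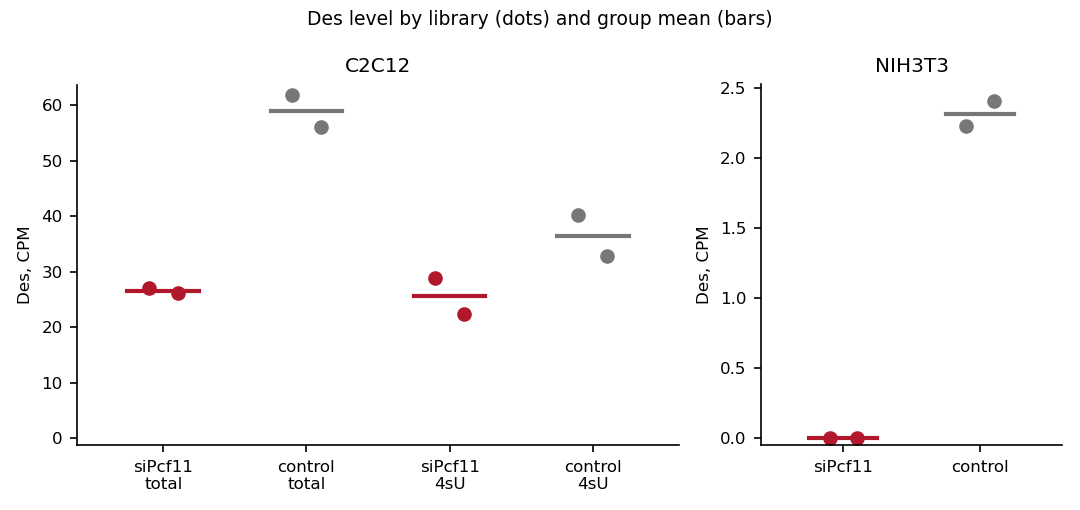
Des level in CPM by library (dots) with group means (bars), in C2C12 total and 4sU RNA and in NIH3T3, siPcf11 left of its untreated group in each pair. In C2C12 both siPcf11 libraries lie below both untreated libraries in each RNA fraction, and in NIH3T3 no siPcf11 library has a Des read.

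Set against total RNA of untreated cells, Des was less represented in 4sU RNA of untreated cells. Untreated cells averaged 36.5 ± 5.22 CPM in the 4sU libraries, against 58.97 ± 4.01 CPM in the total RNA libraries (SD, n = 2 each), with a log2 fold change of -0.77 ± 0.19 (SE, adjusted p = 0.000592, edgeR), where 16.7% of features were lower. Without untreated 4sU library 2 the adjusted p was 0.0544 and the log2 fold change -0.63. In siPcf11 cells the 2 fractions overlapped, at 25.6 ± 4.53 CPM in the 4sU libraries and 26.5 ± 0.672 CPM in the total RNA libraries (SD, n = 2 each). There the log2 fold change was 0.01 ± 0.23 (SE, 95% interval -0.45 to 0.47, adjusted p = 0.976, edgeR), where 18.4% of features passed in either direction. With same-numbered 4sU and total RNA libraries paired, the log2 fold change in untreated cells was -0.78 (adjusted p = 0.000204, edgeR). In siPcf11 cells that paired value was 0.00048. These comparisons share libraries with the siPcf11 comparisons above and are not independent of them.

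Myh3, Myl1 and Ckm were close to undetected in these 8 libraries. Over all 8, Myh3 had 7 reads, Ckm had 4 and Myl1 had 1, with at most 2 reads of any of them in a library. None passed the low-count filter, so only Des was tested. A library with no read allows a level of up to 1.13 to 1.59 CPM (3 reads), for counting error only, so a difference between siPcf11 and untreated cells below that was not detectable at this depth.

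Des in proliferating cells of the differentiation experiment was at 106.7 CPM, against 58.97 CPM in untreated total RNA of the siPcf11 experiment. Both groups are untreated C2C12 cells from separate experiments, and that difference was not tested.

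**Figure D4:**
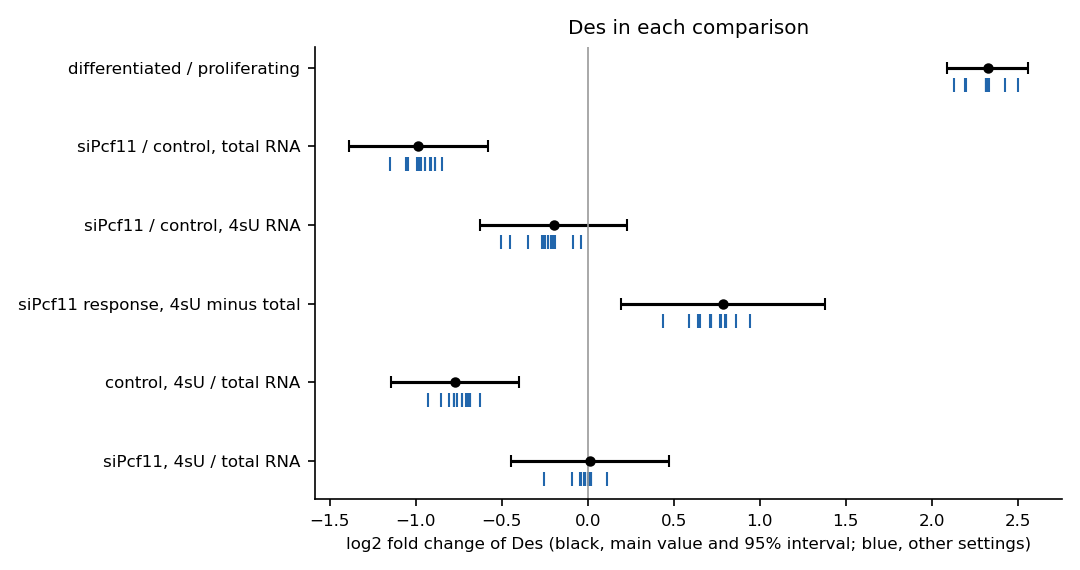
Log2 fold change of Des in the 6 C2C12 comparisons, with its 95% interval (black) and the values under the other settings tried (blue ticks). The differentiation value lies near 2.33 and the total RNA siPcf11 value near -0.98 under all of them, while the intervals of the 4sU siPcf11 value and of 4sU against total RNA in siPcf11 cells include 0.

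Outside C2C12 the 4 genes were at or near the floor. NIH3T3 fibroblasts had no Myl1 or Ckm read in any library, and neither had 4T1 cells. Over the 4 libraries of a line, 0 reads allow up to 0.229 CPM in NIH3T3 and 0.254 CPM in 4T1. None of the 4 genes passed the low-count filter in either line.

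Des had no read in either NIH3T3 siPcf11 library, against 7 and 8 reads, or 2.23 and 2.40 CPM, in untreated NIH3T3 libraries. With 3 reads over the siPcf11 group taken as the floor, 0.453 CPM, and the untreated level taken as measured, Des was at least 5.11-fold lower in siPcf11 cells. With counting error in both groups, the ratio of siPcf11 to untreated reads had an upper 95% limit of 0.273. When the filter was dropped the adjusted p of Des was 0.205 (edgeR), but that fit called 0 of 19060 features (2862 at an unadjusted p under 0.05), so its miss does not set Des apart. The NIH3T3 siPcf11 libraries differed from each other more than any other pair (chi-square per degree of freedom 15.8), and with the filter edgeR called 0 of 13575 features with both (332 of 8311 with DESeq2), 5000 without siPcf11 library 1 and 1780 without siPcf11 library 2. Des, with no read in either, was not tested in those fits. The 15 NIH3T3 reads were listed at 75364295, which is 4 nt downstream of the main C2C12 site. In both C2C12 total RNA and NIH3T3 the siPcf11 libraries had the lower Des values. 4T1 cells had 1 Des read and no read in Pcf11-IPAKO libraries 1 and 2, against 1 read in each untreated library. Both 4T1 pairs also differed widely within the pair (chi-square per degree of freedom 12.6 for Pcf11-IPAKO and 14.5 for untreated). Apart from these and NIH3T3 siPcf11, the highest value was 3.21, in proliferating C2C12 cells.

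The Myh3 window had a few reads in every NIH3T3 and 4T1 library, most of them away from the main Myh3 site. NIH3T3 had 1 read in each siPcf11 library and 2 in each untreated library. Of these NIH3T3 reads, 2 were at the main site, 3 were 11594 nt upstream of it and 1 was 4615 nt upstream. 4T1 cells had 6 reads and 1 read in Pcf11-IPAKO libraries, against 1 and 2 reads in untreated libraries. The 6 reads of 1 Pcf11-IPAKO library set that group's level, and the groups overlapped. All 10 of the 4T1 reads were at 66911173, a site 4615 nt upstream of the main Myh3 site that was singled out after its values were seen. Over the 18 libraries other than the differentiated ones, that site held 16 of the 25 reads in the window and the main site held 6. In the differentiated libraries the upstream site held 0 and 3 reads, of 12921 in all, and the main site held 12883. The upstream site thus had few reads in every group, and its small share in differentiated cells follows from the reads at the main site.

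Ordered by mean CPM, Des ran through differentiated C2C12 cells (486), proliferating cells (106.7), untreated total RNA (58.97), untreated 4sU RNA (36.5), siPcf11 total RNA (26.5), siPcf11 4sU RNA (25.6), untreated NIH3T3 (2.31), untreated 4T1 (0.359), Pcf11-IPAKO 4T1 (0.26) and siPcf11 NIH3T3, which was at 0. Neighbours in this order overlapped for siPcf11 total and 4sU RNA and among the last 3 groups, and the other neighbours did not overlap. For Myh3, Myl1 and Ckm the order below differentiated cells rests on a handful of reads and is not given.

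Reads around the windows bear on whether other transcripts were counted. Within 5 kb of either end of the windows, on the same strand, there was 1 read at Myh3, 1 at Myl1, 3 at Des and 3 at Ckm over all libraries. The opposite strand of the windows held 3 reads at Des, 12 at Ckm and none at Myh3 or Myl1.

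Across the 10 group means of log2(CPM + 1), the pattern of Myl1 was closest to that of Ckm (Pearson r = 0.999) and of Myh3 (r = 0.995), and Des was less like them, with r of 0.533 to Myh3, 0.594 to Myl1 and 0.609 to Ckm. Among 28945 site groups outside the windows, the ones most like Myh3 were at position 102459920 on the minus strand of chromosome 12 (r = 0.998, with 547 CPM in differentiated and 0 in proliferating cells) and at 66105603 to 66111570 on the plus strand of chromosome 9 (r = 0.998). Those most like Myl1 were at 55589521 on the minus strand of chromosome 14 and at 113887916 to 113891954 on the plus strand of chromosome 2, both with r above 0.999. Those most like Ckm were at 157367303 on the minus strand of chromosome 1 and at 115767580 on the plus strand of chromosome 11, also above 0.999. For these 3 genes r is set almost entirely by the differentiated group. Those most like Des were at 23825400 to 23825430 on the minus strand of chromosome 5 (r = 0.990) and at 125391072 to 125391295 on the plus strand of chromosome 8 (r = 0.987). The first of these was at 7.39 CPM in differentiated and 4.06 CPM in proliferating cells. In total RNA it was at 2.28 CPM in siPcf11 and 2.37 CPM in untreated cells. The second was at 708 CPM in differentiated and 149.8 CPM in proliferating cells. In total RNA that second site group was at 30.5 CPM in siPcf11 and 69.1 CPM in untreated cells. Groups of a cell line share their experiment and depth, so these values of r are a description and carry no p.

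In 3T3-L1 RNA-seq, Myh3, Myl1 and Ckm were not listed in either library; the files list no gene below 5 counts. Des had 15 counts in the library labelled siPcf11 and 19 in the untreated library, or 2.15 and 2.22 CPM. The log2 ratio was -0.05, with a counting interval of -1.13 to 1.01. With 1 library per group there is no replicate check and no test.

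A wider list of 42 muscle genes was followed in the same 2 libraries. Of these, 24 were listed in neither library, and 5 had at least 100 counts in both libraries together. Tnnt2, the cardiac-type troponin T, had 78.1 CPM in the library labelled siPcf11 and 119 CPM in the untreated library (log2 ratio -0.61, counting interval -0.76 to -0.46). Eno3, the muscle enolase, had 78.7 CPM in the library labelled siPcf11 and 105 CPM in the untreated one (-0.42, interval -0.58 to -0.26). Tpm2, the beta tropomyosin, had 154 CPM in the library labelled siPcf11 against 199.9 CPM without (-0.37, interval -0.48 to -0.26). Pfkm, the muscle phosphofructokinase, had 168 CPM under the siPcf11 label and 175 CPM in the untreated library (-0.06, interval -0.18 to 0.05). Acta1, the skeletal muscle actin, was the one with a ratio above 0, at 46.9 CPM under the siPcf11 label and 38.96 CPM in the untreated library (0.27, interval 0.04 to 0.49).

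Of these 5 genes, 3 had an interval below 0 and 1 above, and over all 9143 genes with as many counts 23.5% had one below 0 and 16.1% above. The median log2 ratio of the 5 was -0.37, against -0.03 over those genes. The whole list did not show that lower median: over its 18 listed genes it was -0.06, against -0.03 over all 11186 genes listed in both libraries. The ratio was above 0 for 8 of the 18 and below for 10, and intervals lay below 0 for 4 of them and above 0 for 3. That is 22.2% and 16.7% of the 18, against 20.9% and 14.6% of all genes. Outside the 5, and picked after their values were seen, Tnni2, the fast-type troponin I (2.17, interval 1.07 to 3.42), and Pygm, the muscle glycogen phosphorylase (2.56, interval 1.14 to 4.30), lay above 0, and Actn3, an alpha actinin of fast fibres, below (-1.97, interval -3.72 to -0.55), on few counts each. Markers of the labelled cell type were present, as 6 of 6 preadipocyte or fibroblast markers were listed. Their summed levels were 23657 CPM in the library labelled siPcf11 and 22970 CPM in the untreated library. Most of each sum was Col1a1 (7810 and 8293 CPM) and Col1a2 (14704 and 13663 CPM). The log2 ratio was above 0 for Col1a2, Dlk1 and Thy1 and below 0 for Col1a1, Pdgfra and Pdgfrb. None of 5 myogenic markers (Myod1, Myog, Myf5, Myf6 and Mef2c) and none of 2 endothelial markers was listed. Of 5 adipocyte markers 2 were listed, Pparg and Fabp4, with Cebpa, Adipoq and Plin1 unlisted. The listed markers summed to 106 CPM in the library labelled siPcf11 and 122 CPM in the untreated library, but differed in direction. Pparg had 26.7 CPM under the siPcf11 label and 23.4 CPM in the untreated library (log2 ratio 0.19, interval -0.11 to 0.48). Fabp4 had 78.9 and 98.6 CPM (-0.32, interval -0.48 to -0.16). Of 2 epithelial markers, Krt8 was listed in the untreated library with 11 counts.

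**Figure D5:**
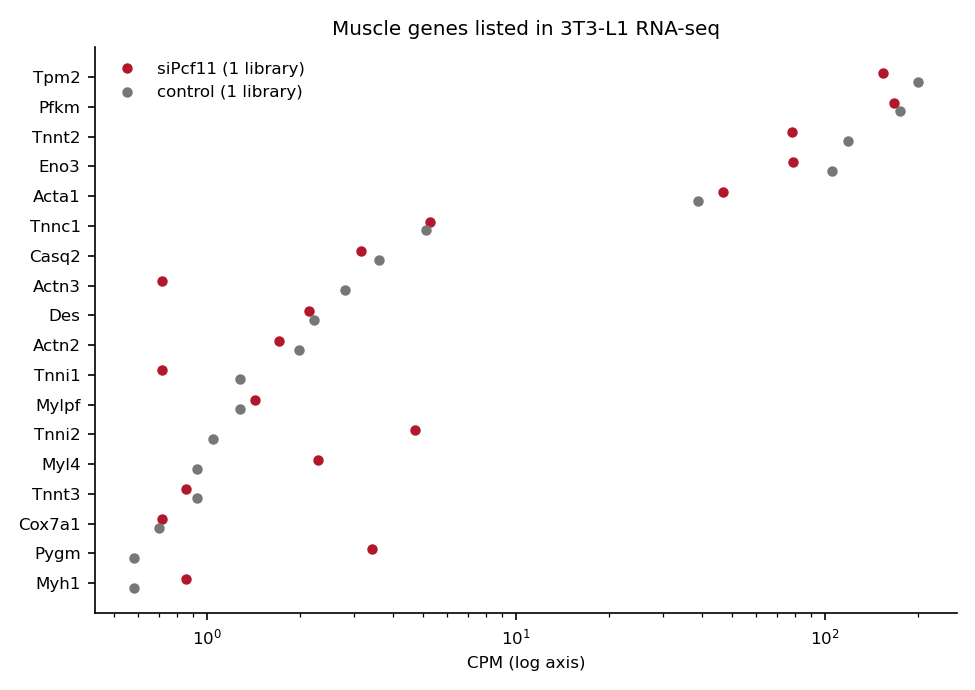
Level in CPM, on a log axis, of the 18 muscle genes listed in 3T3-L1 RNA-seq, in the library labelled siPcf11 and in the untreated library. The 5 genes with at least 100 counts are at the top, and Des lies near 2 CPM in both libraries.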

How the data were processed

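The 3′READS files hold raw read counts per poly(A) site as deposited by the authors, and the RNA-seq files raw read counts per gene; the values are whole numbers with differing totals. Per the submitters' processing notes the tools were Cutadapt, Bowtie2 and STAR and the build mm9, with no version or role. The clustering of reads into sites is not given in the sources used here.

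Genes, windows and the muscle and marker lists were chosen with earlier results of these data known. All reads on a window's strand were summed per gene. Outside the windows, sites with at least 1 CPM in at least 2 libraries of a fit were chained on a strand over gaps of up to 5 kb into site groups. Tests ran in edgeR 4.0.16 under R 4.3.3 with limma 3.58.1, using TMM scaling, filterByExpr with a minimum count of 10, quasi-likelihood F-tests and Benjamini-Hochberg adjustment over all features, with 0.05 as the threshold. The 8 C2C12 siPcf11 and untreated libraries were fitted together, and differentiation, NIH3T3 and 4T1 apart. An SE is the log2 fold change divided by the square root of F. Site use was tested with diffSpliceDGE. The tests were tried on simulated counts. Other settings were DESeq2 1.42.0, other scaling, no filter, single sites, the main site alone, replicate blocks, the 4 compared libraries alone and each library left out.

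Named are the 4 genes, sites with at least 5% of a gene's reads in a group with at least 20 reads, the 2 site groups most like each gene by Pearson r, and muscle genes with at least 100 counts in 3T3-L1. Counting intervals are exact 95% intervals of a ratio of counts; they and the 3-read floors cover counting error only, since PCR copies are not independent molecules. The spread within each group exceeded sampling noise (chi-square per degree of freedom 2.10 to 15.8) and each library was counted as a sample. Analyses and plots used Python 3.11.15, pandas 2.3.3, numpy 2.4.6, scipy 1.17.1 and matplotlib 3.10.9.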

Additional observations from a re-analysis of the deposited data

How the results depend on the processing

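All 4 differentiation calls passed in the same direction under every setting tried, with Des at 2.13 to 2.51 on the log2 scale without any 1 library, Myh3 at 12.27 to 12.57, Myl1 at 10.30 to 14.65 and Ckm at 10.64 to 10.95. The fall of Des in siPcf11 total RNA also passed throughout, at -1.06 to -0.85 without any 1 library and -1.15 to -0.94 under the other settings. In 4sU RNA Des was at -0.45 to -0.04 without any 1 library, and passed under library totals alone (-0.50, adjusted p = 0.0405, edgeR). The difference of the responses stayed at 0.44 to 0.94 without any 1 library and passed under none (adjusted p 0.16 to 0.42 under the other settings, edgeR); DESeq2 gave no adjusted p for it. Untreated 4sU against total RNA was at -0.93 to -0.63 without any 1 library, and lost its call without untreated 4sU library 2. In siPcf11 cells that contrast was near 0 and changed sign with DESeq2 size factors (-0.016), library totals (-0.046) and DESeq2 (-0.019), and ranged from -0.26 to 0.11 without any 1 library; the cause was not tested. In NIH3T3 and 4T1 none of the 4 genes reached the test under the settings that filter low counts, so their 0 calls say nothing of stability; without the filter 0 of them passed, against 0 of 19060 features in NIH3T3 (2862 at an unadjusted p under 0.05, edgeR) and 2.04% in 4T1. No single site of the 4 genes passed the site-use test under any setting. Myh3, Myl1 and Ckm had 2 proliferating reads each, so for them that test could hardly find a change. Without the filter, Des site 75364716 had a log2 use change of 3.84 (unadjusted p = 0.0184, adjusted p = 0.167, edgeR diffSpliceDGE). The siPcf11 site-use tests gave no value for these genes, since none kept more than 1 site.

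Library totals moved the median of all features to -0.11 in differentiation, -0.18 in siPcf11 total RNA and -0.27 in siPcf11 4sU RNA. Higher and lower calls were then 2018 and 3628 in siPcf11 total RNA (2671 and 3042 with TMM), 1953 and 3941 in siPcf11 4sU RNA (3152 and 2788), 33 and 35 for the difference of the responses (76 and 17) and 1495 and 1433 for untreated 4sU against total RNA (1228 and 1857). DESeq2 called 32 of the 2276 features it gave an adjusted p for the difference of the responses, or 1.41% (93 of 11095 with edgeR, 0.838%), 1638 of 9374 for untreated 4sU against total RNA (3085 of 11095) and 1155 of 7868 for siPcf11 4sU against total RNA (2040 of 11095). The 93 calls fell to 48 without siPcf11 total library 1, 25 and 40 without siPcf11 4sU library 1 and 2, 34 and 51 without untreated total library 1 and 2, and 26 without untreated 4sU library 2. Untreated 4sU against total RNA had 1836 calls without untreated total library 1 and 1582 without untreated 4sU library 2, and siPcf11 4sU against total RNA had 1177 without siPcf11 4sU library 2.

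Same-numbered libraries deviated together with r = 0.06 in differentiation, -0.01 to 0.08 in the siPcf11 experiment, 0.08 in NIH3T3 and 0.39 in 4T1. The labels do not say whether such libraries share more than a number. With the replicate block Des was at 2.32 in differentiation, -0.98 in siPcf11 total RNA and -0.20 in 4sU RNA. Des was at 0.78 for the difference of the responses and -0.78 for untreated 4sU against total RNA. No call of the 4 genes changed. The block raised the features called for the difference of the responses to 228, and those called in 4T1 from 434 to 1581. At these depths a library with no read allows up to 0.74 to 1.59 CPM (3 reads).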
